A study of Mus musculus with 4 samples.

Results

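Cytokines, chemokines and their receptors were examined in the inflamed distal colon of mice with a knockout of Elf4, an Ets-family transcription factor. The members were the genes in the deposited table whose symbols begin as interleukin, Ccl, Cxcl, Cx3c, Ccr, Cxcr, Tnf, Csf, Osm or Lif names do. Of 80 such genes, 15 were set aside by name, among them the interleukin-1 and interleukin-18 ligands, the G-CSF gene and the chemokines Cxcl1, Cxcl2 and Cxcl3, which left 65 of the 4121 genes listed. They comprised 27 ligands, 36 receptors and 2 intracellular proteins named for their induction by TNF. The groups were Elf4-KO mice, which carry the Elf4-/- genotype, and WT mice, with 2 RNA samples each. All were 8-week-old C57BL/6 mice that had been given 3% dextran sulfate sodium (DSS), which damages the epithelial lining and so causes colitis, and the colon was taken at day 6. All samples are therefore inflamed, and a colon without DSS is not analysed here. How the Elf4 gene was disrupted, and whether samples of a genotype came from separate animals, is not given in the sources used.

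The deposited table gives 1 FPKM value per gene and genotype. FPKM scales fragments by transcript length and by the mapped total, so levels can be compared between genes. With 1 value per genotype there is no SD, n or read depth behind any value, and no test between genotypes could be run. The table lists genes that passed the authors' own test, so 100% of its rows are called. The smallest fold among its rows was 1.99999, so a fold limit appears to have been applied as well. A gene that is not listed may therefore still differ by a smaller fold. Rose and fell below rest on the q-value in the authors' deposited table. Unless another q is given, it was 0.000372, the smallest in that table, which 45 of the 65 members had. The 12 epithelial markers examined, Epcam and Krt20 among them, were listed above 0 in both genotypes. Elf4 itself had 3.51 FPKM in Elf4-KO and 16.4 FPKM in WT, so its RNA was lower in the knockout but not absent.

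Cytokines are secreted or membrane-bound proteins that act on neighboring cells through dedicated receptors, and chemokines are the small cytokines that direct leukocyte migration. In the colon they come from epithelium, stroma and leukocytes, and they recruit neutrophils and monocytes to damaged mucosa, drive acute-phase signaling and regulate epithelial repair. Receptors of one family often share a common subunit, and some are decoys that bind a ligand without signaling.

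Most members were higher in the knockout colon. Of the 65, 53 (81.5%) rose and 12 (18.5%) fell, beside 48.0% of all listed genes that were higher and 52.0% that were lower. A rise of at least 4-fold was seen for 23 members and a fall of that size for 7, while 12.9% and 24.5% of all listed genes rose or fell so far. The median log2 ratio of (FPKM + 1), Elf4-KO over WT, was 1.27 for the members and -0.76 for the whole table. The members were summed to 4173 FPKM in Elf4-KO and 1147 FPKM in WT. The direction of members was thus skewed upward where the table as a whole leaned downward, and the difference has no test. In bulk tissue, fewer cells of a type and less RNA per cell cannot be told apart, and this holds for every value here.

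By count and by median, ligands stood further above WT than receptors did, and by median the gap was smaller without the chemokines. The 10 chemokine ligands had a median log2 ratio of 2.16. The 17 other ligands had a median of 1.30, nearer to that of the receptors. Of 27 ligands, 24 rose and 3 fell, and their log2 ratios had a median of 1.77, while of 36 receptors, 27 rose and 9 fell, with a median of 1.12. The summed level of the ligands was 2932 FPKM in Elf4-KO and 604 FPKM in WT, a 4.85-fold difference. The receptors summed to 1076 FPKM in Elf4-KO and 477 FPKM in WT, a 2.26-fold difference. Rises of at least 4-fold were seen for 16 ligands and 7 receptors, and falls of that size for 1 ligand and 6 receptors. The medians of ligands and receptors differed by 0.65, a difference between genes of 1 comparison for which no test over samples exists.

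**Figure D1:**
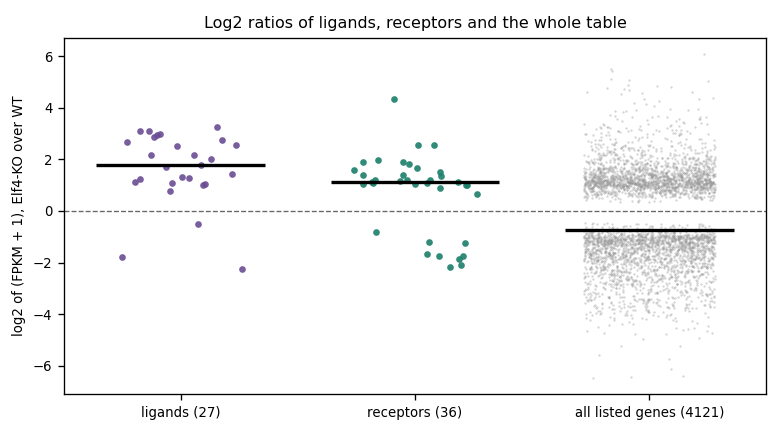
Log2 ratio of (FPKM + 1), Elf4-KO over WT, for each of 27 ligands, 36 receptors and 4121 listed genes (points, spread sideways at random), with black bars at the medians. The medians lie at 1.77, 1.12 and -0.76. The gap around 0 is there because the table lists called genes only, with a smallest fold of 1.99999.

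Chemokine ligands were the most abundant members. Summed over 10 chemokines, the level was 2568 FPKM in Elf4-KO and 513 FPKM in WT. The 7 CC chemokines among the members rose, whereas Ccl5, Ccl20 and Ccl28, which were set aside by name, had 103.4, 2.99 and 1.67 FPKM in Elf4-KO, against 246, 9.36 and 35.0 FPKM in WT, and fell (Ccl20 with q = 0.0238 in the authors' deposited table). Ccl2, which draws monocytes through the receptor Ccr2, had 572 FPKM in Elf4-KO and 66.1 FPKM in WT. It moved to the first place among the 27 ligands in Elf4-KO, against the fifth in WT. Cxcl1, which was set aside, had more in Elf4-KO, with 735 FPKM there and 48.4 FPKM in WT. Ccl11, the eosinophil attractant eotaxin, had 538 FPKM in Elf4-KO and 79.8 FPKM in WT. Ccl7, a monocyte attractant, had 321 FPKM in Elf4-KO and 70.9 FPKM in WT. The rises of Ccl2, Ccl11 and Ccl7 were 8.66-fold, 6.74-fold and 4.53-fold, and these genes lie side by side on chromosome 11.

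The other CC chemokines were lower in level. Ccl9, which attracts myeloid cells through Ccr1, had 124.9 FPKM in Elf4-KO and 18.7 FPKM in WT. Ccl3 and Ccl4, the macrophage inflammatory proteins, had 39.2 and 41.4 FPKM in Elf4-KO, against 4.58 and 9.61 FPKM in WT. Ccl12, a mouse monocyte chemokine, rose least, with 36.9 FPKM in Elf4-KO and 15.2 FPKM in WT (2.43-fold, q = 0.0159 in the authors' deposited table). The CC chemokine rises thus ran between 2.43-fold and 8.66-fold.

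Of the other chemokines among the members, 2 rose and 1 fell. Cxcl9 and Cxcl10, which were set aside by name, fell to 3.07 and 27.8 FPKM in Elf4-KO, against 51.3 and 103.7 FPKM in WT. Cxcl1, Cxcl2 and Cxcl3, also set aside, rose. Cxcl5, a neutrophil attractant made by epithelium and stroma, had 478 FPKM in Elf4-KO and 106.5 FPKM in WT. Cxcl13, which guides B cells into follicles through Cxcr5, had 410.3 FPKM in Elf4-KO and 119.7 FPKM in WT, where it was the most abundant of the 27 ligands. Il18 and Ccl5, which were set aside, had more in WT, with 249 and 246 FPKM. Cx3cl1, a membrane-anchored chemokine that binds Cx3cr1, fell to 5.80 FPKM in Elf4-KO, against 22.4 FPKM in WT. Cxcl13 rose while the 2 listed B and plasma cell markers of 7 examined, Cr2 and Ms4a1, summed to 6.90 FPKM in Elf4-KO and 27.9 FPKM in WT. The part of cell numbers in these values was not tested.

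**Figure D2:**
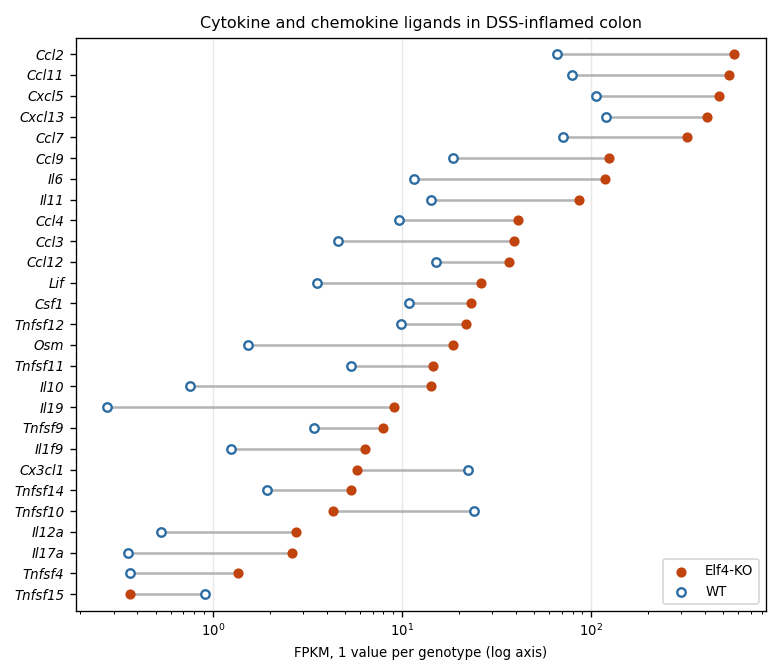
FPKM (log axis) of the 27 ligands in Elf4-KO (filled) and WT (open), 1 value per genotype, ordered by the Elf4-KO value. Ccl2, Ccl11, Cxcl5, Cxcl13 and Ccl7 lead in both genotypes, and the open circle lies right of the filled one for Cx3cl1, Tnfsf10 and Tnfsf15.

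The interleukin-6 family rose as a group of ligands. These cytokines signal through the shared subunit encoded by Il6st and the STAT3 pathway. Il6, the main inducer of the acute-phase response, had 118 FPKM in Elf4-KO and 11.6 FPKM in WT, a 10.2-fold rise. Il11, a stromal cytokine, had 87.0 FPKM in Elf4-KO and 14.4 FPKM in WT. Osm, the oncostatin M gene of myeloid cells, had 18.7 FPKM in Elf4-KO and 1.54 FPKM in WT, and its 12.1-fold rise exceeded that of the others. Lif, which lies next to Osm, had 26.2 FPKM in Elf4-KO and 3.58 FPKM in WT. All 4 ligands rose at least 6.06-fold.

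Their receptors rose less. Il6st had 124 FPKM in Elf4-KO and 53.0 FPKM in WT, and it ranked second among the receptors in both genotypes. Osmr, the oncostatin M receptor chain, had 49.8 FPKM in Elf4-KO and 22.9 FPKM in WT, and Lifr had 11.4 FPKM in Elf4-KO and 4.73 FPKM in WT. Il6ra, the chain specific for interleukin-6, had 11.0 FPKM in Elf4-KO and 3.59 FPKM in WT. These rises ran between 2.17-fold and 3.06-fold. Il27ra, the interleukin-27 receptor chain of lymphocytes, was the exception and fell to 1.25 FPKM in Elf4-KO, against 4.24 FPKM in WT (q = 0.00238 in the authors' deposited table). Its locus in the table overlaps the gene Palm3, and the 7 listed markers of T and NK cells of 11 examined also fell, to a sum of 46.5 FPKM in Elf4-KO against 138.6 FPKM in WT.

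Promoters of Il6, Il11 and Lif are shown because the ligands of this family moved together. Osm was not found by name in the promoter table, so these are 3 of the 4. The sequences are from RefSeq on GRCm38.p6, 5′ to 3′, and cover the 230 bases that end 21 bases before an annotated transcript start, with matches to the AP-1 motif TGANTCA and, in Il6, to the NF-kB motif (GGG and TTTCC with any NN between them) in capitals.
Il6 (chr5:30012864-30013093, plus strand): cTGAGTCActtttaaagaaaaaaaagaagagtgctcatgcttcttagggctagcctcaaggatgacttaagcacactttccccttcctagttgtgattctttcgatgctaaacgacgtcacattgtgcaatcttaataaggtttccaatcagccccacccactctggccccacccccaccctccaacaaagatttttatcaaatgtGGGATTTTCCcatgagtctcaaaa
Il11 (chr7:4778162-4778391, minus strand): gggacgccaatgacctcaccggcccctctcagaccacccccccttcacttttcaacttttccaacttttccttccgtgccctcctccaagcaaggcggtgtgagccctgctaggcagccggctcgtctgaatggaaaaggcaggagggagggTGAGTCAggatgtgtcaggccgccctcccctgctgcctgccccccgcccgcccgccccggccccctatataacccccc
Lif (chr11:4257318-4257547, plus strand): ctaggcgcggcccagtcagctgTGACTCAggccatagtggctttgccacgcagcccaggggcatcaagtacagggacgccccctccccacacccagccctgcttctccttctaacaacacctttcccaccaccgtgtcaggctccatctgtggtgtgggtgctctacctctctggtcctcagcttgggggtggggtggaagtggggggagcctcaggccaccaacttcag
Each of these 3 holds 1 AP-1 match, and the NF-kB match of Il6 begins 44 bases before its start. Il11 has a second RefSeq start without either match. That start lies at the 5′ end of the Il11 locus, whereas the Il11 window shown lies inside the locus. Of the 65 members, 49 were found by name in the promoter table, with 58 windows of 250 bases before a start. On either strand, TGANTCA was found in 11 of these windows (19.0%), beside 6.75% of 32851 mouse windows, and the NF-kB pattern in 5 (8.62%) beside 1.41%. The 5 were Ccl9, Csf1, Il17rc, Il6 and Tnfaip3, of which Il17rc fell. The Ets motif CCGGAAG was found in 2 windows (3.45%), those of Il15ra and Il20ra, beside 6.91%. A shorter Ets spelling, AGGAAG, was found in 21 windows (36.2%) beside 29.5%, so these spellings lean in opposite ways. The STAT motif TTCNNNGAA was found in 3 (5.17%) beside 7.02%. These patterns are 5 of 14 spellings searched and were picked after their matches were seen, and a match is a string of letters that does not show binding.

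The interleukin-1 receptor family held the largest rise among the receptors. Il1r2, a decoy that captures interleukin-1 without signaling, had 157 FPKM in Elf4-KO and 6.83 FPKM in WT, a 23.0-fold rise that took it to the first place among the receptors in Elf4-KO, against the 19th in WT. The signaling receptor Il1r1 had 101.8 FPKM in Elf4-KO and 26.9 FPKM in WT. The decoy stood at 1.54 times the signaling receptor in Elf4-KO and at 0.254 times in WT. The ligand gene Il1b had 261.5 FPKM in Elf4-KO and 77.6 FPKM in WT.

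The 6 members among the receptors of this family rose, while Il18r1, one of the 15 genes set aside, fell. Il1rl1, the interleukin-33 receptor found on mast cells, innate lymphoid cells and regulatory T cells, had 121.7 FPKM in Elf4-KO and 19.9 FPKM in WT. Il1rl2, the interleukin-36 receptor, had 15.8 FPKM in Elf4-KO and 3.24 FPKM in WT, and its ligand gene Il1f9, now called Il36g, had 6.37 FPKM in Elf4-KO and 1.25 FPKM in WT. Ligand and receptor of this pair rose together. Il1rap, the accessory chain these receptors share, had 21.5 FPKM in Elf4-KO and 7.79 FPKM in WT. Il18rap, a chain of the interleukin-18 receptor, had 13.5 FPKM in Elf4-KO and 3.81 FPKM in WT, whereas its partner Il18r1 had 1.27 FPKM in Elf4-KO and 3.67 FPKM in WT (q = 0.00335 in the authors' deposited table). Their ligand gene Il18 fell to 13.6 FPKM in Elf4-KO, against 249 FPKM in WT. The chains of that receptor therefore moved in opposite directions.

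**Figure D3:**
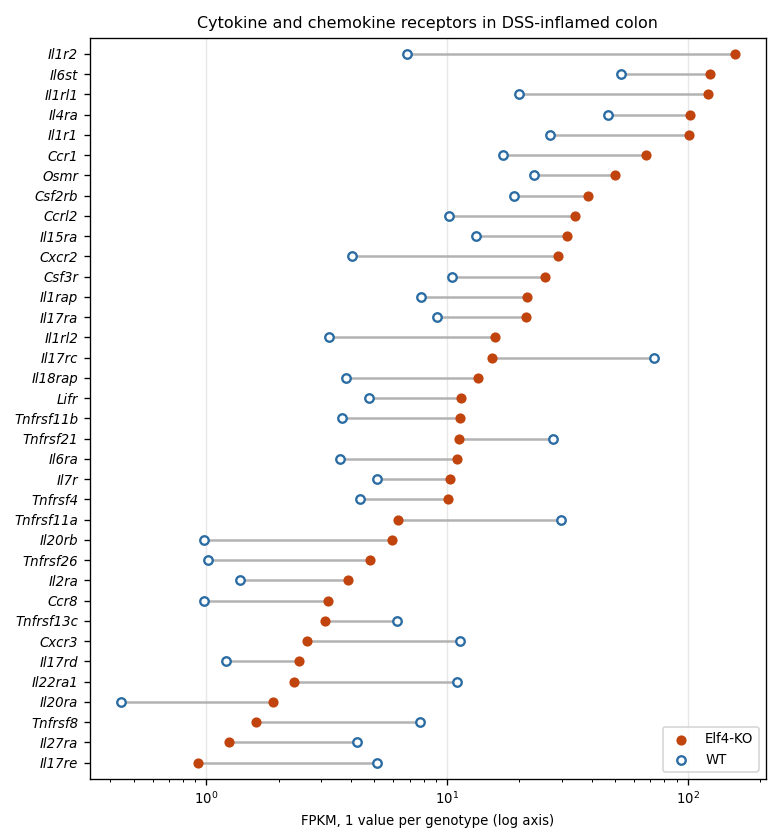
FPKM (log axis) of the 36 receptors in Elf4-KO (filled) and WT (open), 1 value per genotype, ordered by the Elf4-KO value. Il1r2 shows the widest gap, and 9 receptors, among them Il17rc, Tnfrsf21 and Tnfrsf11a, have the open circle on the right.

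Of the 5 chemokine receptors among the members, 4 rose and 1 fell. Cxcr2, the neutrophil receptor for Cxcl5, had 28.9 FPKM in Elf4-KO and 4.03 FPKM in WT. Ccr1, a myeloid receptor for Ccl3, Ccl7 and Ccl9, had 66.9 FPKM in Elf4-KO and 17.1 FPKM in WT. Ccrl2, an atypical receptor that holds chemerin at the cell surface, had 34.2 FPKM in Elf4-KO and 10.2 FPKM in WT. These 3 receptors of myeloid cells rose between 3.36-fold and 7.19-fold. Cxcr3, carried by effector T cells and NK cells, fell to 2.63 FPKM in Elf4-KO, against 11.3 FPKM in WT. Ccr8, known from regulatory T cells, had 3.21 FPKM in Elf4-KO and 0.981 FPKM in WT (q = 0.0363 in the authors' deposited table).

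Of the colony-stimulating factor system, Csf1, the macrophage growth factor, had 23.3 FPKM in Elf4-KO and 10.9 FPKM in WT. Csf3r, the G-CSF receptor of neutrophils, had 25.5 FPKM in Elf4-KO and 10.5 FPKM in WT, while its ligand gene Csf3 had 260.3 FPKM in Elf4-KO and 4.78 FPKM in WT. Csf2rb, the signaling chain shared by GM-CSF, interleukin-3 and interleukin-5, had 38.7 FPKM in Elf4-KO and 19.0 FPKM in WT, but it has a close paralog, Csf2rb2, so the split of reads between them is uncertain. These 3 members rose between 2.04-fold and 2.43-fold.

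Myeloid markers moved with these genes. Leaving out Cxcr2 and Csf3r, 8 of 11 neutrophil markers were listed, of which 6 rose and 2 fell (Ly6g and Ltf), and they summed to 4042 FPKM in Elf4-KO and 1181 FPKM in WT. The 3 listed markers of monocytes and macrophages, Cd68, Marco and Mrc1 of 11 examined, rose, with sums of 246 FPKM in Elf4-KO and 58.6 FPKM in WT. No listed marker of either list was at 0 in either genotype. Their part in the rise of the receptors was not tested.

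Among receptors of the common gamma chain family, all 4 listed rose, by 2.01-fold to 2.81-fold. Il4ra, the receptor chain of interleukin-4 and interleukin-13, had 102.5 FPKM in Elf4-KO and 46.9 FPKM in WT. Il15ra, which presents interleukin-15, had 31.7 FPKM in Elf4-KO and 13.2 FPKM in WT. Both receptor chains are also found outside lymphocytes. Il7r, for lymphocyte survival, had 10.3 FPKM in Elf4-KO and 5.13 FPKM in WT (q = 0.0065 in the authors' deposited table). Il2ra, the high-affinity interleukin-2 chain of activated and regulatory T cells, had 3.90 FPKM in Elf4-KO and 1.39 FPKM in WT (q = 0.00156 in the authors' deposited table). Il2ra and Il7r were higher although the 7 listed T and NK cell markers were lower.

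The interleukin-10 and interleukin-12 families had small but steep changes. Il19, a member of the interleukin-10 family, had 9.12 FPKM in Elf4-KO and 0.277 FPKM in WT (q = 0.00312 in the authors' deposited table). This 32.9-fold rise was the largest fold of any member, and it starts from the lowest WT level of any member. Il10 itself, which restrains macrophages and T cells, had 14.2 FPKM in Elf4-KO and 0.755 FPKM in WT, an 18.8-fold rise. Il12a, a subunit of interleukin-12, had 2.76 FPKM in Elf4-KO and 0.531 FPKM in WT (q = 0.0198 in the authors' deposited table).

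Receptors of the interleukin-10 family went both ways. Il20rb and Il20ra, which together bind interleukin-19, had 5.89 and 1.90 FPKM in Elf4-KO, against 0.977 and 0.441 FPKM in WT (q = 0.00811 for Il20ra in the authors' deposited table). Il22ra1, the epithelial chain of the interleukin-22 receptor that drives antimicrobial defence and repair, fell to 2.31 FPKM in Elf4-KO, against 11.0 FPKM in WT, a 4.76-fold difference.

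The interleukin-17 system also divided. Il17a, which induces neutrophil-attracting chemokines, had 2.64 FPKM in Elf4-KO and 0.355 FPKM in WT (q = 0.0164 in the authors' deposited table). Il17ra, the shared receptor chain, had 21.4 FPKM in Elf4-KO and 9.06 FPKM in WT (q = 0.00753 in the authors' deposited table). Il17rc, which pairs with it to bind interleukin-17A, fell to 15.4 FPKM in Elf4-KO, against 72.2 FPKM in WT, where it was the most abundant receptor of all 36. Il17rc was thus at 0.722 times Il17ra in Elf4-KO and at 7.97 times in WT.

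The remaining members of that receptor family were low. Il17re, the epithelial receptor for interleukin-17C, fell to 0.921 FPKM in Elf4-KO, against 5.12 FPKM in WT. Il17rd, which modulates interleukin-17 and growth factor signaling, had 2.43 FPKM in Elf4-KO and 1.21 FPKM in WT (q = 0.0164 in the authors' deposited table). Of the 12 epithelial markers examined, 12 were listed and all fell, to a sum of 855 FPKM in Elf4-KO against 8838 FPKM in WT, with none at 0. Il22ra1, Il17rc and Il17re fell beside them by 4.76-fold, 4.68-fold and 5.55-fold, and the part of the epithelial share in these values was not tested.

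The TNF superfamily, whose ligands and receptors govern cell death, costimulation and lymphoid tissue, was mixed. Of the 14 members by the name rule in this family, 8 rose and 6 fell. Of the 6, 1, Tnfsf15, changed direction when log2 ratios were centred on the table median. Relatives outside the name rule, the lymphotoxin genes Lta and Ltb among them, are not in these counts and are given below. The members summed to 104 FPKM in Elf4-KO and 126 FPKM in WT, and of the 12 members that fell, 6 belong to this family. Tnf itself was not in the table and is not analysed here.

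Of the 7 TNF family ligands among the members, 2 fell. Tnfsf10, the death ligand TRAIL, was the larger fall, with 4.33 FPKM in Elf4-KO and 24.1 FPKM in WT. Tnfsf15, a T cell costimulator, had 0.364 FPKM in Elf4-KO and 0.912 FPKM in WT (q = 0.0478 in the authors' deposited table), both under 1 FPKM. The other 5 of these ligands rose. Tnfsf11, the RANK ligand, had 14.6 FPKM in Elf4-KO and 5.37 FPKM in WT (q = 0.00156 in the authors' deposited table). Tnfsf14, the costimulator LIGHT, had 5.42 FPKM in Elf4-KO and 1.93 FPKM in WT (q = 0.00384 in the authors' deposited table). Tnfsf11 and Tnfsf14 also shape lymphoid tissue. Tnfsf9, the 4-1BB ligand, had 7.94 FPKM in Elf4-KO and 3.41 FPKM in WT. Tnfsf4, the OX40 ligand, had 1.36 FPKM in Elf4-KO and 0.364 FPKM in WT. Tnfsf12, encoding TWEAK, had 21.8 FPKM in Elf4-KO and 9.86 FPKM in WT, but its locus in the table also spans Tnfsf13. For Tnfsf9, Tnfsf4 and Tnfsf12, q lay between 0.0321 and 0.0423 in the authors' deposited table.

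Of 7 TNF family receptors among the members, 3 rose and 4 fell. Tnfrsf11a, the receptor RANK, fell to 6.25 FPKM in Elf4-KO, against 29.8 FPKM in WT, while its decoy Tnfrsf11b, osteoprotegerin, had 11.3 FPKM in Elf4-KO and 3.67 FPKM in WT. The RANK ligand was at 2.34 times its receptor in Elf4-KO and at 0.18 times in WT, whereas against the decoy it stood at 1.30 times in Elf4-KO and 1.46 times in WT. Ligand and decoy rose to a like extent, and the receptor moved the other way. The part of cell numbers in these ratios was not tested.

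The remaining receptors of the family among the members were those of lymphocytes and of cell death. Tnfrsf21, a death receptor, had 11.2 FPKM in Elf4-KO and 27.6 FPKM in WT. Tnfrsf8, CD30 of activated lymphocytes, had 1.61 FPKM in Elf4-KO and 7.76 FPKM in WT. Tnfrsf13c, the BAFF receptor of B cells, had 3.11 FPKM in Elf4-KO and 6.23 FPKM in WT (q = 0.0341 in the authors' deposited table). All 3 fell. Tnfrsf4, the costimulatory receptor OX40 of activated T cells, had 10.1 FPKM in Elf4-KO and 4.36 FPKM in WT. Tnfrsf26 had 4.81 FPKM in Elf4-KO and 1.02 FPKM in WT, but its locus in the table also spans Tnfrsf22 and Tnfrsf23. The q of both was 0.0192 in the authors' deposited table.

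Both intracellular members rose. Tnfaip3 encodes the ubiquitin-editing enzyme A20, which restrains NF-kB, and had 74.4 FPKM in Elf4-KO and 30.3 FPKM in WT. Tnfaip2 had 90.9 FPKM in Elf4-KO and 35.0 FPKM in WT. Of 40 other genes of NF-kB and TNF signaling, 9 were listed, 5 higher and 4 lower. The inhibitor Nfkbia had 252.5 FPKM in Elf4-KO and 80.6 FPKM in WT, and the kinase Map3k8 had 32.2 FPKM in Elf4-KO and 5.47 FPKM in WT. Tradd, the adaptor of the TNF receptor, fell to 10.1 FPKM in Elf4-KO, against 60.1 FPKM in WT, and Casp8, the initiator of death receptor killing, fell to 26.1 FPKM in Elf4-KO, against 114 FPKM in WT. Nfkbia and Map3k8 thus moved against Tradd and Casp8.

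Of 25 JAK-STAT genes, 4 were listed. The feedback inhibitor Socs1 had 12.8 FPKM in Elf4-KO and 42.9 FPKM in WT. Tyk2, a receptor-bound kinase, had 5.50 FPKM in Elf4-KO and 11.9 FPKM in WT (q = 0.0452 in the authors' deposited table). Socs2 rose to 44.2 FPKM in Elf4-KO, against 16.1 FPKM in WT. Stat3, through which the interleukin-6 family acts, was not listed, and neither was Socs3.

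Of 39 relatives outside the name rule, 11 were listed, 9 higher and 2 lower. The platelet chemokines Ppbp and Pf4 had 40.1 and 412 FPKM in Elf4-KO, against 0.584 and 33.7 FPKM in WT, and the atypical chemokine receptor Ackr3 had 55.5 FPKM in Elf4-KO and 14.1 FPKM in WT. The lymphotoxin genes Lta and Ltb, of lymphocytes and lymphoid tissue, fell to 0.17 and 11.2 FPKM in Elf4-KO, against 1.67 and 32.5 FPKM in WT (q = 0.024 for Lta in the authors' deposited table).

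Ligands and receptors known to bind each other were set side by side. Among the members, 21 such pairs had both partners listed, made of 13 ligands and 15 receptors. In 19 pairs both partners rose, and in 2 the ligand rose and the receptor fell. The 2 were Il17a with Il17rc and Tnfsf11 with Tnfrsf11a. Pairs share members, Il6st being in 4 of them, so they are not separate observations. The 3 ligands that fell, Cx3cl1, Tnfsf10 and Tnfsf15, were in none of the 21 pairs, so no pair could show a falling ligand. Over all members, 24 of 27 ligands and 27 of 36 receptors rose. Outside these pairs, which hold members only, the ligand Il18 fell and its receptor chain Il18rap rose. In the other pairs compared that hold a gene set aside by name, both partners rose. The set-aside chemokines Cxcl9 and Cxcl10, which fell as the receptor Cxcr3 did, were in no pair that was compared. Tnfrsf11b, counted here as the decoy of Tnfsf11, is also known to bind Tnfsf10, a pair that was not among those compared.

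**Figure D4:**
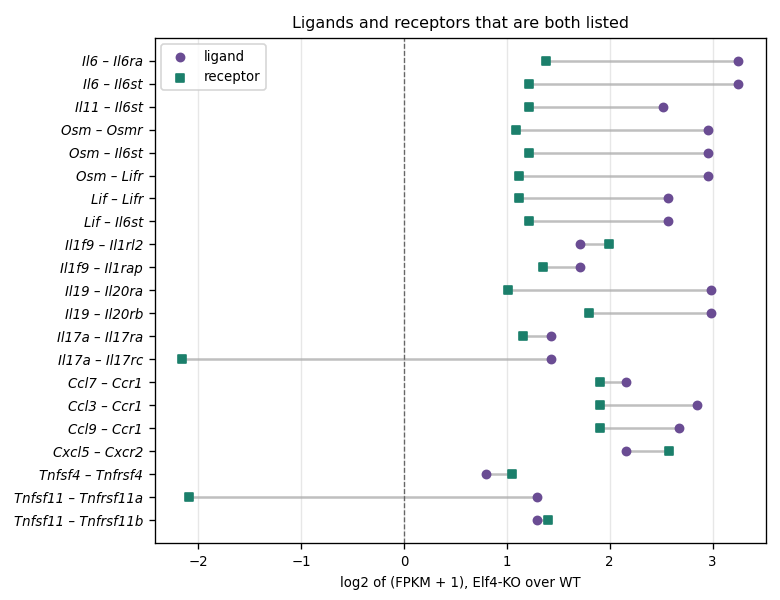
Log2 ratio of (FPKM + 1), Elf4-KO over WT, of the ligand (circle) and receptor (square) in each of 21 pairs of members. Both symbols lie right of 0 in 19 pairs, and the receptors Il17rc and Tnfrsf11a lie left of it.

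Many members are neighbors in the genome. Within 100000 bases of another member lay 22 of the 65, in 8 groups, and in each group the members shared a direction, up in 7 and down in 1. Of all 65 members, 53 (81.5%) rose, and genes set aside by name were not counted in the groups. On chromosome 1, Il1r2, Il1r1, Il1rl2, Il1rl1 and Il18rap rose within chr1:40074079-40551705 of GRCm38, and the 1 other protein-coding gene of that stretch, Il18r1, fell. On chromosome 11, Ccl2, Ccl7, Ccl11 and Ccl12 rose within chr11:82028224-82103400, and Ccl9, Ccl3 and Ccl4 within chr11:83572919-83664683, where Ccl6 was not listed. The table's locus of Ccl2 is wider than the annotated gene and overlaps Gm17268, which lies on the other strand.

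The other groups were pairs. Osm and Lif rose at chr11:4236420-4272514, Il19 and Il10 at chr1:130932656-131024974, Il2ra and Il15ra at chr2:11642807-11734317, and Tnfsf9 and Tnfsf14 at chr17:57092035-57194189, on either side of Cd70, which was not listed. Il17re and Il17rc fell at chr6:113458484-113483140. Neighbors arose by gene duplication in several of these families, so a shared direction is a description of related genes.

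**Figure D5:**
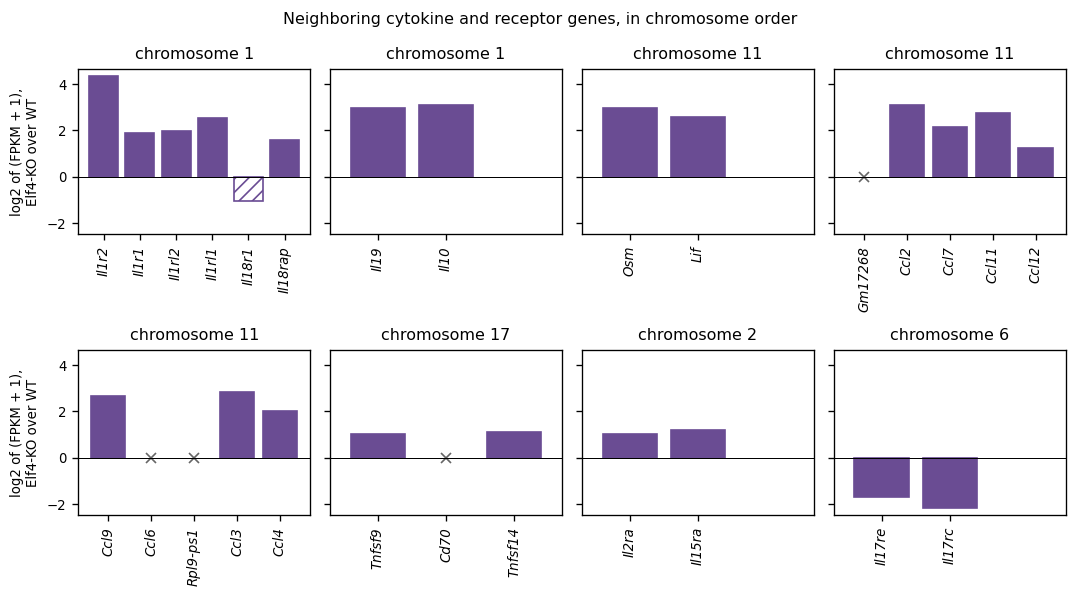
Log2 ratio of (FPKM + 1), Elf4-KO over WT, of protein-coding genes in chromosome order in 8 groups of neighboring members (filled bars), with Il18r1 hatched as no member and crosses for genes that were not listed. The bars of members point one way within each group, down only for Il17re and Il17rc.

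Low values limit part of this account. The higher of both values was under 5 FPKM for 10 members and under 1 FPKM for 1, Tnfsf15. The q was above 0.01 for 12 members, of which 9 had under 10 FPKM in both genotypes.

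Stromal markers were higher in the same tissue. Of 7 fibroblast markers 5 were listed and rose, to 4150 FPKM in Elf4-KO against 1062 FPKM in WT, and of 7 endothelial markers 6 were listed and rose, to 307 FPKM in Elf4-KO against 90.9 FPKM in WT. Fibroblasts are a known source of Il6, Il11, Lif, Ccl2 and Ccl11, and the part of the stromal share in their rise was not tested. The 4 listed markers of mast cells and eosinophils, of 8 examined, were 2 higher and 2 lower, with sums of 24.4 FPKM in Elf4-KO and 58.2 FPKM in WT. The mast cell proteases Mcpt1 and Mcpt2 fell to 3.99 and 1.06 FPKM in Elf4-KO, against 31.7 and 17.9 FPKM in WT. Kit and the eosinophil marker Siglecf rose to 17.7 and 1.65 FPKM in Elf4-KO, against 7.95 and 0.608 FPKM in WT. The q of these 2 was 0.00184 and 0.0418 in the authors' deposited table. The eosinophil receptor Ccr3, bound by Ccl11 and Ccl7, had 4.85 FPKM in Elf4-KO and 0.948 FPKM in WT. Of 5 smooth muscle markers, 0 were listed.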

How the data were processed

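Per the labels' protocols, colon RNA was taken up in Trizol and a Vazyme mRNA kit was used for the libraries. The submitters' processing notes name Bowtie 0.12.2, Cufflinks 2.2.1 and mm8, without their roles. The deposited table holds, per the file headers, 1 FPKM value per gene and genotype and the p-value and q-value of the authors' test. How the authors combined 2 samples is not given in the sources used. All 65 member IDs were found in GENCODE M21 on the annotated chromosome, and 56 starts, after adding 1, and 54 ends were equal, so coordinates are on GRCm38 although mm8 is named.

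Members were found by the name rule. Of 184 names with a role fixed, synonyms included, 119 were not in the table and are not analysed here. Members, role lists, pairs and marker lists were chosen with earlier results of these data known. Every member is named. Others named are Elf4, partners of members, and listed genes of the 3 related lists, at most 3 per direction, of which 1 is not reported here.

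Log2 ratios are of FPKM + 1, a pseudocount that shrinks the changes of low genes. Folds used FPKM alone. Depth is unknown and no spread between samples exists, so no test was run. Counts and medians were checked on simulated data. Alternatives were pseudocounts of 0.1 and 0, minimums of 1 and 5 FPKM, q of at most 0.01, a 4-fold limit, centring on the table median, and receptors without decoy and atypical members. Python 3.11.15, numpy 2.4.6, pandas 2.3.3 and matplotlib 3.10.9 were used.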

Additional observations from a re-analysis of the deposited data

How the results depend on the processing

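No paired analysis was possible because each genotype has only 1 FPKM value per gene, and for that reason leaving out each sample was not run either. Shifts of more than 1.5 times are given here. With a 4-fold limit, by construction fewer genes remained: 23 members higher and 7 lower, 7 receptors higher and 1 ligand lower, with a member median log2 ratio of 2.08. The median of ligands minus that of receptors was 1.56 with that limit, 1.19 with q of at most 0.01 and 0.98 with at least 5 FPKM, so it was positive under each of these and 0.65 as reported. Centring on the table median of -0.76 gave medians of 2.02 for members and 1.87 for receptors. It moved the log2 ratios of 39 of 65 genes by over 1.5 times and turned 1 more, Tnfsf15, to 0.27. Pseudocounts of 0.1 and 0 moved 6 and 8 genes and turned none. Without values per sample or depth, no interval can be given for any value.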
